A study of Homo sapiens with 6 samples.

Results

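The mRNA levels of 10 glycolysis enzymes, HK2, GPI, PFKP, ALDOA, TPI1, GAPDH, PGK1, ENO1, PKM and LDHA, were examined in TE1 cells, a human cell line derived from an esophageal squamous cell carcinoma, with and without overexpression of FGL1. They were taken by symbol from the deposited gene table and are 10 of its 12180 genes, and 68 of the 33090 transcripts in the transcript table belong to them. The control group (NC) has 3 libraries of TE1 cells, labelled as wild type and described in the study's methods as carrying a lentivirus with random nonsense sequences. The overexpression group (FGL1-OE) has 3 libraries of TE1 cells carrying a lentivirus with FGL1. Both were kept as stable lines after puromycin selection, and the labels name no radiation treatment. Nothing in the labels says whether the libraries of a group came from separate cultures, so the p-values measure the spread between these libraries, which may be technical. All levels are FPKM, fragments scaled by the length of the gene or transcript and by the fragments mapped in the library, so that genes of different length can be compared. Fold changes are differences in log2(FPKM + 1) between FGL1-OE and NC from limma, a linear model fitted to the 12017 genes or 30330 transcripts that averaged 0.5 FPKM or more, and adjusted p-values are those of the Benjamini-Hochberg method over the whole table.

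FGL1 was listed at no more than 0.106 FPKM in the NC libraries and at 33.5 to 39.9 FPKM in the FGL1-OE libraries, as the labels say. Of 10 markers of squamous epithelium, 8 were listed, with sums of 483 to 778 FPKM in NC and 686 to 776 FPKM in FGL1-OE, while KRT14 and PKP1 were not listed. Of the markers of other cell types, 3 of 6 for fibroblasts were listed with a sum of at most 8.27 FPKM, 1 of 5 for leukocytes (CD68) at no more than 5.73 FPKM, and 0 of 3 for endothelium.

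Glycolysis splits glucose into pyruvate in the cytosol. Hexokinase, glucose-6-phosphate isomerase, phosphofructokinase and aldolase prepare and cleave the sugar at a cost of ATP, triosephosphate isomerase interconverts the resulting trioses, and the enzymes from GAPDH to pyruvate kinase return ATP and NADH. Lactate dehydrogenase then turns pyruvate into lactate and regenerates the NAD+ that GAPDH uses, and many carcinomas run this route at a high rate even with oxygen present. Most steps have several isozymes from different genes, and PKM makes its M1 and M2 forms by using either of a pair of alternative exons.

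The NC libraries were less alike than the FGL1-OE libraries, with NC 1 and NC 2 at opposite ends. Across the 12017 genes tested, the log2(FPKM + 1) values of NC 1 and NC 2 correlated at 0.885, those of NC 3 with NC 1 and NC 2 at 0.964 and 0.950, and any pair of FGL1-OE libraries at 0.981 or more. With the FGL1-OE libraries, NC 2 correlated at 0.955 to 0.971 and NC 1 at 0.935 to 0.953. Genes more than 2-fold away from the rest of their group made up 8.97% in NC 2, 6.67% in NC 1 and at most 0.990% in the other 4 libraries. The deviation of a gene from the other libraries of its group had a rank correlation with the GC content of its transcripts of -0.78 in NC 2, 0.74 in NC 1 and 0.30 in NC 3, over 11781 genes measured in the same libraries. Within FGL1-OE it was 0.52, -0.48 and -0.19 in libraries 1, 2 and 3. The deviations of a gene cancel out within its group, so the correlations of a group are tied to each other and are not separate observations. In NC 2, LDHA, whose coding transcripts average 45.8% GC, was 0.80 above the mean of NC 1 and NC 3 on the log2(FPKM + 1) scale. TPI1 (56.4% GC) differed by -0.82, PKM (57.3% GC) by -0.80, ENO1 (53.5% GC) by -0.71, ALDOA (60.2% GC) by -0.61 and PFKP (57.7% GC) by -0.58. PGK1, with 43.3% GC, differed by -0.011. HK2 (50.4% GC), GPI (58.6% GC) and GAPDH (57.0% GC) differed by -0.16, -0.18 and -0.26. The 3 genes lowest in GC content, PGK1, LDHA and HK2, thus had the 3 highest values of this difference. The part of GC content in the group differences was not tested. As in any bulk sample, fewer cells of a kind and less RNA per cell cannot be told apart.

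**Figure D1:**
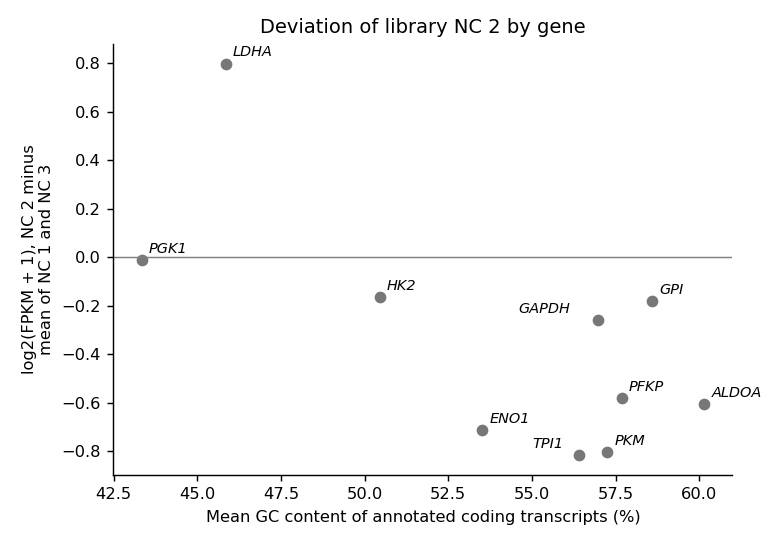
Each point is 1 of the 10 genes. The x axis is the mean GC content of its annotated coding transcripts in percent and the y axis is log2(FPKM + 1) in NC 2 minus the mean of NC 1 and NC 3. LDHA is the only gene above 0, at 0.80, and TPI1 and PKM are the lowest, at -0.82 and -0.80.

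The 10 genes made up 0.905% of the summed gene FPKM in NC 2 and 1.10% to 1.37% in the other 5 libraries. Their mean levels over the 6 libraries spanned from 6.60 FPKM for HK2 to 1112 FPKM for GAPDH, in the order GAPDH, ENO1, TPI1, PKM, PGK1, LDHA, ALDOA, PFKP, GPI and HK2. GAPDH was above ENO1, ENO1 above TPI1, PGK1 above LDHA, PFKP above GPI and GPI above HK2 in 6 of 6 libraries, and the ranges of these neighbours did not overlap. TPI1 was above PKM in 6 of 6 libraries although their ranges overlapped. PKM was above PGK1 in 5 of 6, and LDHA above ALDOA in 4 of 6 with means of 73.4 and 72.4 FPKM, so that this last pair could not be ordered.

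**Figure D2:**
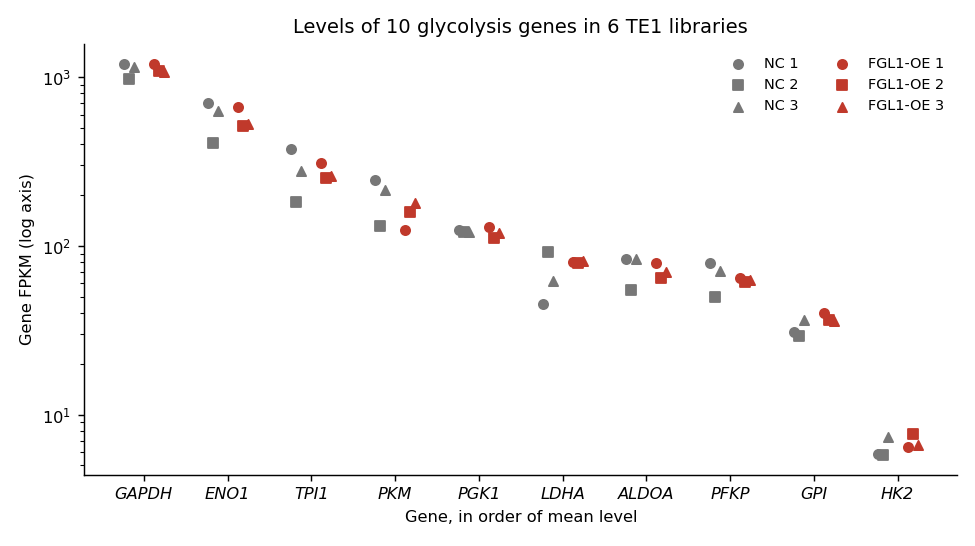
Gene FPKM on a log axis for the 10 genes in order of mean level, with grey symbols for NC and red symbols for FGL1-OE, and circles, squares and triangles for libraries 1, 2 and 3. The NC symbols spread more widely than the FGL1-OE symbols for ENO1, TPI1 and LDHA, with the NC 2 square lowest for ENO1 and TPI1 and highest for LDHA, and the groups overlap in every gene.

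HK2 (chromosome 2, 75061108 to 75120486 on GRCh37, as are the coordinates of the other genes) encodes a hexokinase that traps glucose in the cell as glucose 6-phosphate. Its levels were 5.85, 5.74 and 7.32 FPKM in NC 1, 2 and 3 but 6.42, 7.72 and 6.57 FPKM in FGL1-OE 1, 2 and 3. GPI (chromosome 19, 34850385 to 34893061), the isomerase of the next step, was at 30.8, 29.3 and 36.1 FPKM in the NC libraries and 39.8, 36.1 and 35.8 FPKM in the FGL1-OE libraries. For both genes the lowest values were those of NC 1 and NC 2, and NC 3 lay within the range of the FGL1-OE libraries.

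PFKP (chromosome 10, 3108525 to 3179904), the platelet-type phosphofructokinase of the first committed step, was at 78.6, 49.6 and 71.0 FPKM in the NC libraries and 64.4, 61.2 and 62.4 FPKM in the FGL1-OE libraries. ALDOA (chromosome 16, 30064411 to 30081778), the aldolase that cleaves the sugar, was at 83.1, 54.4 and 83.5 FPKM in the NC libraries and 79.6, 64.4 and 69.5 FPKM in the FGL1-OE libraries. TPI1 (chromosome 12, 6976283 to 6980112), the triose isomerase, was at 373, 182 and 276 FPKM in the NC libraries and 312, 251 and 261 FPKM in the FGL1-OE libraries. In all 3 genes NC 2 was the lowest of the 6 libraries and NC 1 or NC 3 the highest, so that the FGL1-OE values lay inside the NC range.

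GAPDH (chromosome 12, 6643093 to 6647540), the dehydrogenase that makes NADH and a common reference gene, was at 1192, 977 and 1151 FPKM in the NC libraries and 1203, 1081 and 1066 FPKM in the FGL1-OE libraries. PGK1 (chromosome X, 77320685 to 77384793), which makes the first ATP of the pathway, was the steadiest of the 10, at 124, 122 and 121 FPKM in the NC libraries and 129, 111 and 119 FPKM in the FGL1-OE libraries. ENO1 (chromosome 1, 8921061 to 8939308), the enolase, was at 705, 405 and 626 FPKM in the NC libraries and 663, 512 and 529 FPKM in the FGL1-OE libraries. The highest library exceeded the lowest by 1.23-fold for GAPDH, 1.17-fold for PGK1 and 1.74-fold for ENO1.

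PKM (chromosome 15, 72491370 to 72524163), the pyruvate kinase, was at 244, 131 and 214 FPKM in the NC libraries and 124, 159 and 179 FPKM in the FGL1-OE libraries. LDHA (chromosome 11, 18415935 to 18429972), the lactate dehydrogenase subunit known for making lactate, was at 45.0, 92.3 and 61.6 FPKM in the NC libraries and 80.4, 79.5 and 81.7 FPKM in the FGL1-OE libraries. The PKM values of FGL1-OE were below those of NC 1 and NC 3, and 1 of them was below NC 2 as well, whereas the LDHA values were above those of NC 1 and NC 3 and below that of NC 2. LDHA was nearly constant over the FGL1-OE libraries, with an SD of 0.020 on the log2(FPKM + 1) scale against 0.51 in NC.

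None of the 10 genes passed the test between FGL1-OE and NC. By limma, 0 of 10 had a Benjamini-Hochberg adjusted p below 0.05, where 0.00832% of all genes tested had one, and 0 of 10 had an unadjusted p below 0.05, where 2.01% of all genes did. An ordinary linear model without moderation also gave 0 of 10 by both criteria. Of the 12017 genes tested, it gave 2 with an adjusted p below 0.05 and 3.11% with an unadjusted one. The groups overlapped in all 10 genes, while they did not overlap in 7.15% of all genes tested. The median log2 fold change of the 10 was 0.0090, beside 0.016 over all genes tested. Above 0 were 6 of the 10, beside 6455 of the 12017 genes tested.

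The largest values were those of the last steps. LDHA had a log2 fold change of 0.34 (SE 0.25, limma adjusted p = 1.00) and PKM of -0.31 (SE 0.26, limma adjusted p = 1.00), each about as large as its error. GPI followed with 0.21 (SE 0.15), and the other 7 genes lay between -0.056 for PFKP and 0.12 for HK2 with standard errors of 0.14 to 0.26. ENO1 and GAPDH had log2 fold changes of 0.0018 and 0.016. The exact two-sided permutation test gave p-values between 0.3 for GPI and 1 for ENO1 and TPI1, and the smallest that 3 libraries against 3 allow is 0.1.

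Without NC 2, the log2 fold change of LDHA was 0.60 (SE 0.16, unadjusted p = 0.00704 and adjusted p = 0.194 by limma) and that of PKM was -0.58 (SE 0.18, unadjusted p = 0.0148 and adjusted p = 0.195 by limma). These were 2 of 10 genes with an unadjusted p below 0.05, in a fit where 21.8% of all genes had one, and 0 of 10 had an adjusted p below 0.05, beside 0.0583% of all genes. Leaving out NC 2 took the median of the 10 genes to -0.15, beside 0.036 over all genes tested. It put 7 of the 10 below 0, with PFKP at -0.25, ENO1 at -0.24 and TPI1 and ALDOA at -0.23. Without NC 1, by contrast, LDHA was at 0.092 (SE 0.19, unadjusted p = 0.648 by limma) and PKM at -0.13 (SE 0.25, unadjusted p = 0.620 by limma). The median of the 10 was then 0.075, beside -0.0093 over all genes tested. The sizes of the LDHA and PKM differences thus rested on which of NC 1 and NC 2 was kept. PKM stayed below 0 and LDHA, GPI and HK2 above 0 in every alternative run, whereas each of the other 6 genes changed sign in at least 1.

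**Figure D3:**
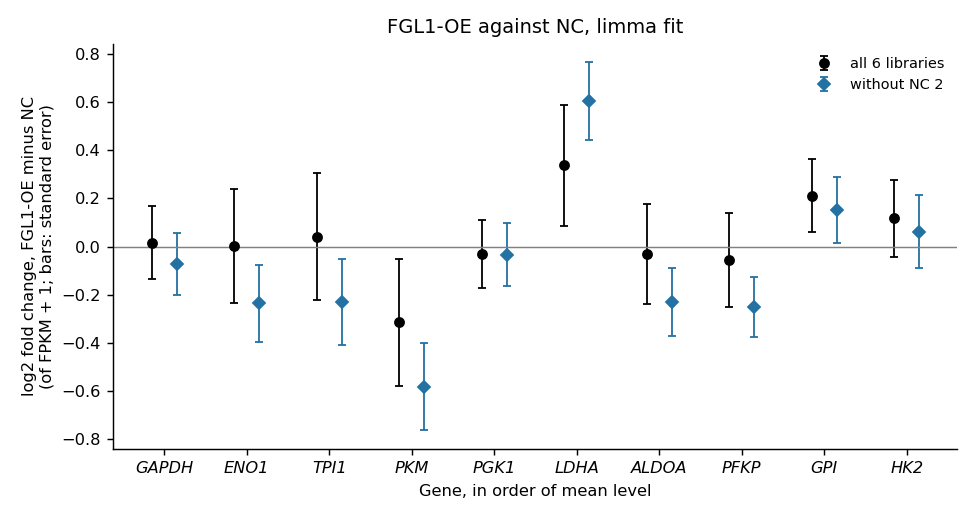
Log2 fold change of FPKM + 1 (FGL1-OE minus NC) with its standard error for each of the 10 genes, from limma's fit of all 6 libraries (black circles) and without NC 2 (blue diamonds). Without NC 2, LDHA moves from 0.34 to 0.60 and PKM from -0.31 to -0.58, while PGK1 stays at -0.03.

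The 10 genes varied more among the NC libraries, as genes in general did. Their median SD of log2(FPKM + 1) was 0.35 in NC and 0.12 in FGL1-OE, beside 0.31 and 0.12 over all genes tested. The larger SD was that in NC for 9 of the 10, beside 10108 of the 12017 genes tested. PGK1 was the exception, with 0.016 in NC and 0.11 in FGL1-OE. The largest SDs in NC were those of TPI1 (0.52), LDHA (0.51) and PKM (0.47).

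Across the 6 libraries, ENO1, GAPDH, TPI1, ALDOA and PFKP moved together on the log2(FPKM + 1) scale, with correlations of 0.87 to 0.99 in each pair. LDHA ran against them, with correlations of -0.67 to -0.90. The correlation of PKM with LDHA was -0.87 and that of HK2 with PGK1 was -0.63. These are descriptions over n = 6 libraries that share the deviation of NC 2. By the same measure, the genes outside the 10 whose levels were most like the mean of the 10, among 3991 genes of at least 10 FPKM, were ZNF593, MAPK13, CCT7, TRAP1 and NDST1, with Pearson correlations of 0.996 to 0.999. That mean was 6.91, 6.58 and 6.91 in NC and 6.88, 6.78 and 6.82 in FGL1-OE, lowest in NC 2, and CCT7 followed it at 156, 99.2 and 155 FPKM in the NC libraries and 146, 133 and 137 FPKM in the FGL1-OE libraries.

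Within a step, isozymes of different genes can be weighed against each other in the same library, whatever the scaling between libraries. Deviations that differ from gene to gene, as those of NC 1 and NC 2 did, do not cancel in such shares and ratios. HK2 was a minor hexokinase, with 6.48% to 9.08% of the summed hexokinase FPKM, while HK1 had 86.9% to 89.8% and HKDC1 2.92% to 4.16%. PFKP was the main phosphofructokinase with 73.4% to 76.8%, ahead of PFKM and PFKL, the muscle and liver types. ALDOA had 61.1% to 64.7% of the aldolase FPKM and ALDOC, the brain type, had the rest. ENO1 had 98.1% or more of the enolase FPKM, and PKLR, the liver and red cell pyruvate kinase, was not listed. The shares of HK2, PFKP, ALDOA and ENO1 differed between the groups by 0.57, 1.62, -1.36 and 0.25 percentage points, with overlapping groups and exact two-sided permutation p-values of 0.2 to 0.6.

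LDHB, the lactate dehydrogenase subunit known for the reverse reaction, was the more abundant of its pair, at 162, 172 and 166 FPKM in the NC libraries and 152, 171 and 155 FPKM in the FGL1-OE libraries. The ratio of LDHA to LDHB was 0.278, 0.536 and 0.370 in NC 1, 2 and 3 and 0.527, 0.465 and 0.528 in FGL1-OE 1, 2 and 3. NC 2 had the highest ratio of all 6 libraries and NC 1 the lowest. The mean log2 ratio was 0.41 higher in FGL1-OE, a difference close to the SD of 0.34 within groups (p = 0.4 in the exact permutation test, two-sided), and went from 0.18 to 0.66 when single libraries were left out, the extremes being without NC 1 and without NC 2.

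The transcript table splits these genes further. It lists 16 transcripts of ALDOA, 9 each of GPI, LDHA and PKM, 7 of PFKP, 6 each of GAPDH and TPI1, 3 of ENO1, 2 of HK2 and 1 of PGK1, and 65 of the 68 passed the filter of 0.5 FPKM. Listed transcripts of a gene need not add up to its gene value. For PKM they summed to 279 FPKM on average against 175 FPKM in the gene table. The sums were 284 against 72.4 FPKM for ALDOA, 111 against 34.7 FPKM for GPI and 603 against 276 FPKM for TPI1. They were below the gene value only for GAPDH, at 388 against 1112 FPKM, and ENO1, at 549 against 573 FPKM. Transcripts of a gene share most of their sequence. Of the 31-base words of a listed transcript, a median of 4.997% occurred in no other annotated transcript of its gene, and 15 of the 68 had no word of their own.

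By limma, 0 of the 65 transcripts tested had a Benjamini-Hochberg adjusted p below 0.05, where 0.0165% of all transcripts tested had one. The ordinary linear model also gave 0 of the 65, beside 3 of the 30330 transcripts tested. An unadjusted p below 0.05 was found for 4 of the 65, PKM-216, PKM-201, PKM-202 and PFKP-204, beside 3.53% of all transcripts. All 4 were higher in FGL1-OE, as were 2.05% of all transcripts at that threshold. The ordinary linear model left 2 of them, PKM-216 and PKM-201, where it gave 3.65% of all transcripts. The groups did not overlap in 5 of the 65, GPI-208, PFKP-204, PKM-201, PKM-216 and PKM-217, beside 8.22% of all transcripts tested. FGL1-OE was the higher group in all 5, as in 4.65% of all transcripts. The share of non-overlapping transcripts, both directions taken, was thus near that of the whole table. The share of called transcripts was above that of the whole table, as were both shares when only transcripts higher in FGL1-OE were taken. These counts are small, and 3 of the 4 called transcripts belong to PKM. No test of the counts was made. Without NC 2, 9 of the 65 had an unadjusted p below 0.05, where 9.03% of all transcripts did, and 1 of them, PKM-216, an adjusted p of 0.0369 by limma, where 0.0923% of all transcripts were below 0.05.

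**Figure D4:**
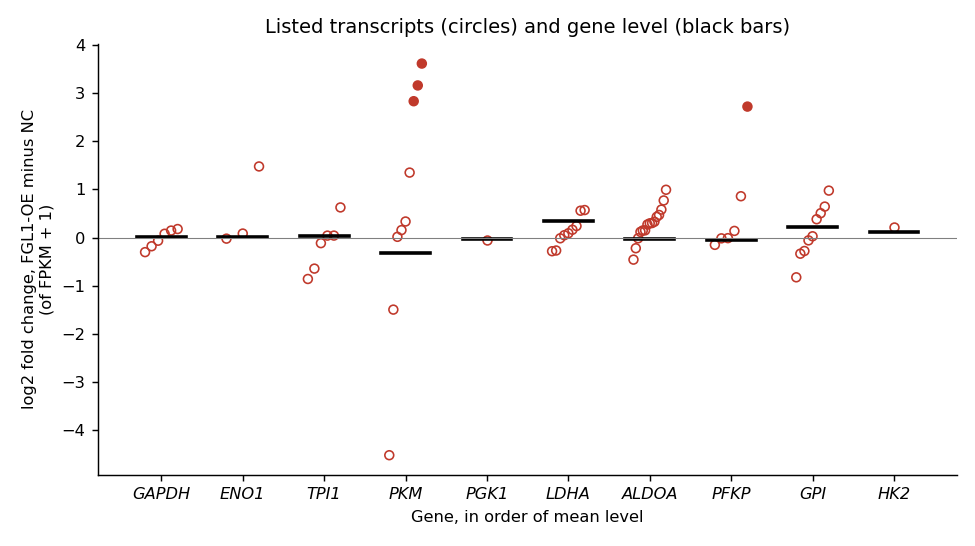
Log2 fold change of FPKM + 1 (FGL1-OE minus NC) of the 65 tested transcripts of the 10 genes (circles, filled where the unadjusted limma p is below 0.05) and of the gene itself (black bar). PKM transcripts spread from -4.53 to 3.62 around a gene value of -0.31, while the transcripts of GAPDH stay between -0.30 and 0.18.

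In 7 of the 10 genes 1 transcript led in every library. TPI1-202 held 97.8% to 98.8% of the listed TPI1 FPKM, ENO1-201 86.5% to 99.3%, PFKP-203 53.7% to 95.2%, GAPDH-201 49.6% to 75.9%, LDHA-203 50.7% to 77.0% and HK2-201 83.1% to 100%. PGK1-201 is the only listed PGK1 transcript. The remaining GAPDH FPKM lay mostly in GAPDH-205, with mean shares of 26.5% in NC and 21.1% in FGL1-OE. The differences between groups in the share of these leading transcripts had exact two-sided permutation p-values of 0.5 or more, except for HK2-201.

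HK2-201 had 83.1%, 94.8% and 96.7% of the listed HK2 FPKM in NC and 99.98%, 100% and 100% in FGL1-OE, with NC below FGL1-OE throughout (p = 0.1, the least possible in the exact permutation test, two-sided). The difference in mean share was 8.44 points, and 4.21 points without NC 1. The other listed transcript, HK2-202, was at 1.05, 0.313 and 0.251 FPKM in NC and was listed at 0.0012, 0 and 0 FPKM in FGL1-OE. Its mean was below the filter and it was not tested, and the highest NC value came from 1 library, NC 1. HK2-201 itself was at 6.11 ± 1.18 FPKM in NC against 7.23 ± 0.755 FPKM in FGL1-OE (SD, n = 3 each).

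In ALDOA, GPI and PKM the lead changed between libraries. ALDOA-225 led in 4 libraries and ALDOA-226 in NC 2 and FGL1-OE 1, and the share of ALDOA-225 was 21.95% to 50.2% in NC and 25.0% to 28.9% in FGL1-OE. The difference in its mean share was -9.75 points, but -17.3 points without NC 2 and -3.15 points without NC 3. GPI-202 led in 5 libraries, at 33.0% to 55.0% in NC and 51.1% to 54.8% in FGL1-OE, a difference in mean share of 9.22 points that was 14.99 points without NC 2 and 3.998 points without NC 1. The exception was NC 1, where GPI-214, a transcript of 6 annotated exons and 478 coding bases where GPI-202 has 1791, had 39.5 FPKM beside 38.8 FPKM for GPI-202. GPI-214 was at 39.5, 3.82 and 30.8 FPKM in the NC libraries and 7.59, 12.1 and 8.80 FPKM in the FGL1-OE libraries, so NC alone held both its highest values and its lowest. Its log2 fold change was -0.83, and -1.79 without NC 2 but -0.26 without NC 1. GPI-201 had mean shares of 12.5% in NC and 15.9% in FGL1-OE.

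PFKP-204, a short transcript of 7 annotated exons, was listed at 0, 0.018 and 0 FPKM in the NC libraries and 16.6, 0.024 and 15.4 FPKM in the FGL1-OE libraries. FGL1-OE 2 was therefore at the level of NC, and the 2 other FGL1-OE libraries made the log2 fold change of 2.73 (SE 1.10, unadjusted p = 0.0457 and adjusted p = 1.00 by limma). It was 4.08 without FGL1-OE 2, and with any other library left out the unadjusted limma p was 0.102 to 0.142. PFKP-201 was uneven in the same way in both groups, at 9.61, 3.05 and 32.8 FPKM in the NC libraries and 41.1, 7.48 and 4.41 FPKM in the FGL1-OE libraries. Among the 47 transcripts not named by the rule on shares and p-values, log2 fold changes went from -0.86 to 1.48 and no mean share passed 9.65%.

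PKM is the gene whose isoforms are best known. Exon 9 gives the M1 form, typical of muscle and brain, and exon 10 gives the M2 form, typical of growing and malignant cells, and a transcript carries either of them. Both exons are 167 bases long and differ at 62 positions, which is 62.9% identity, and their longest identical run is 10 bases, so that no 31-base word is shared between them. They are shown because the 6 long PKM transcripts of the table were sorted by them. Capitals mark the bases at which the exons differ. The M1 exon has 53.3% GC and the M2 exon 61.1% GC, and the part of this in the transcript values was not tested. On GRCh38, in the GENCODE v29 annotation, the M1 exon is at chr15:72203022-72203188 and the M2 exon at chr15:72202454-72202620, both on the minus strand.
M1 exon: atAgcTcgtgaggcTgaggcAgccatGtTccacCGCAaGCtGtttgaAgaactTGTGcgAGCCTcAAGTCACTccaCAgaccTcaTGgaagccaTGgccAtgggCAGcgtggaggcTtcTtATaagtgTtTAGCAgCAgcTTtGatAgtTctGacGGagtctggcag
M2 exon: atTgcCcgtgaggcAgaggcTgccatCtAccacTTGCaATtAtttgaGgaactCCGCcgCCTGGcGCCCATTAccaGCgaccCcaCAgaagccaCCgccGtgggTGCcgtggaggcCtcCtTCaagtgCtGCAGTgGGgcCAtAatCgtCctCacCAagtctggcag

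By this annotation, PKM-201, PKM-205, PKM-216 and PKM-220 carry the M1 exon, PKM-202 and PKM-203 carry the M2 exon, and PKM-207, PKM-217 and PKM-218 are short transcripts with neither. Most listed PKM FPKM lay on transcripts annotated with the M1 exon in every library. M1 transcripts had 98.9%, 89.3% and 97.1% of the listed PKM FPKM in NC 1, 2 and 3 and 63.2%, 79.0% and 86.7% in FGL1-OE 1, 2 and 3. M2 transcripts had 0.739%, 8.84% and 1.81% in NC and 36.1%, 18.2% and 8.75% in FGL1-OE. These shares are the authors' assignment of fragments to transcripts, and the tables hold no counts over either exon by which it could be checked. M1 is the form named above as typical of muscle and brain, not of malignant cells. Which exon TE1 cells mainly use therefore cannot be told from these shares.

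The M1 share was 95.1% ± 5.08 (SD, n = 3) in NC and 76.3% ± 12.0 (SD, n = 3) in FGL1-OE, a difference of -18.8 percentage points with no overlap of the groups (p = 0.1, the least possible in the exact permutation test, two-sided). The M2 share was above the NC range in 2 of the 3 FGL1-OE libraries, and FGL1-OE 3, at 8.75%, lay just below NC 2, at 8.84%. Taken as a share of M1 and M2 transcripts only, M2 was 0.742%, 9.01% and 1.83% in NC and 36.3%, 18.7% and 9.16% in FGL1-OE, so the groups just failed to overlap (p = 0.1 in the exact permutation test, two-sided). Whether they overlap thus depends on the denominator. The mean M2 shares of all listed PKM FPKM were 3.80% ± 4.401 (SD, n = 3) in NC and 21.0% ± 13.9 (SD, n = 3) in FGL1-OE (p = 0.2 in the exact permutation test, two-sided). When single libraries were left out, the difference in M1 share lay between -24.0 and -12.2 points and that in M2 share between 9.66 and 23.3 points, the smallest of both being without FGL1-OE 1.

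The sums behind these shares were uneven. M1 transcripts summed to 588, 131 and 320 FPKM in NC and 247, 75.9 and 99.0 FPKM in FGL1-OE, and M2 transcripts to 4.39, 13.0 and 5.97 FPKM in NC and 141, 17.5 and 9.99 FPKM in FGL1-OE. The high M2 value of FGL1-OE 1 came from PKM-203 at 92.5 FPKM, beside 4.32 to 6.80 FPKM in the other 5 libraries, and from PKM-202 at 48.3 FPKM, beside 0.074 to 10.6 FPKM. PKM-202 had a log2 fold change of 2.84 (SE 1.06, unadjusted p = 0.0349 and adjusted p = 0.9999 by limma). Its groups overlapped, with NC 2 at 6.91 FPKM above FGL1-OE 3 at 5.09 FPKM. All listed PKM transcripts summed to 594, 147 and 330 FPKM in NC and 390, 96.1 and 114 FPKM in FGL1-OE, which is a wider spread than that of the PKM gene value. The order of the libraries also differed. FGL1-OE 1 had the lowest PKM gene value of all libraries, at 124 FPKM, but a transcript sum exceeded only by that of NC 1. The cause of this difference was not tested.

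Within the M1 class, the split of the FPKM over transcripts differed between the groups. PKM-205 still led the listed PKM transcripts in FGL1-OE 1 and FGL1-OE 3, while PKM-216 led in FGL1-OE 2. PKM-216 was at 0.716, 5.22 and 1.24 FPKM in the NC libraries and 38.4, 28.1 and 37.9 FPKM in the FGL1-OE libraries. Its log2 fold change was 3.62 (SE 0.51, unadjusted p = 0.000315 and adjusted p = 0.241 by limma), and every FGL1-OE library was above every NC library. PKM-201 was at 0.476, 1.09 and 0.543 FPKM in the NC libraries and 13.9, 20.8 and 9.59 FPKM in the FGL1-OE libraries, with a log2 fold change of 3.17 (SE 0.34, unadjusted p = 6.7e-05 and adjusted p = 0.119 by limma). PKM-201 kept an adjusted p-value above 0.05 in every alternative run, between 0.0898 and 0.823, and PKM-216 fell below it only without NC 2, with 0.316 without NC 1.

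PKM-205 and PKM-220 ran the other way. PKM-220 was at 323, 0.029 and 144 FPKM in the NC libraries and 0, 2.88 and 0 FPKM in the FGL1-OE libraries, so NC 2 was at the level of FGL1-OE and the groups overlapped (log2 fold change -4.53, SE 2.14, limma adjusted p = 1.00). Its log2 fold change was -7.11 without NC 2 and -2.96 without NC 1 (limma adjusted p = 0.112 and 0.999). PKM-205 was at 264, 125 and 174 FPKM in the NC libraries and 194, 24.1 and 51.6 FPKM in the FGL1-OE libraries, with a log2 fold change of -1.50 (SE 0.76, limma adjusted p = 1.00) that was -2.31 without FGL1-OE 1 and -0.83 without FGL1-OE 2. Added up, these transcripts had 93.4% ± 7.33 (SD, n = 3) of the listed PKM FPKM in NC and 41.02% ± 11.4 (SD, n = 3) in FGL1-OE, while PKM-201 and PKM-216 had 1.68% ± 2.27 and 35.3% ± 19.5 (SD, n = 3 each). These transcripts were added up after their values had been seen, so the sums are a description with no test.

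The annotation shows where these M1 transcripts differ. PKM-201, PKM-216 and PKM-220 each have 1593 coding bases in 11 exons, the same number as the M2 transcript PKM-202, and PKM-205 has 1455 in 10 exons. Their last exons are 728 bases in PKM-201 and 725 in PKM-216, but 128 in PKM-220 and 148 in PKM-205. PKM-205 and PKM-220 are thus the pair annotated with a short 3′ end. In every NC library and in FGL1-OE 1 and FGL1-OE 3, this pair had more of the listed PKM FPKM than PKM-201 and PKM-216. In FGL1-OE 2 it had less. The share of 31-base words found in no other annotated PKM transcript is 0.968% for PKM-201, 1.13% for PKM-216, 6.37% for PKM-205 and 9.85% for PKM-220, and it is 0% for PKM-202. The part of last-exon length and of shared sequence in these values was not tested.

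**Figure D5:**
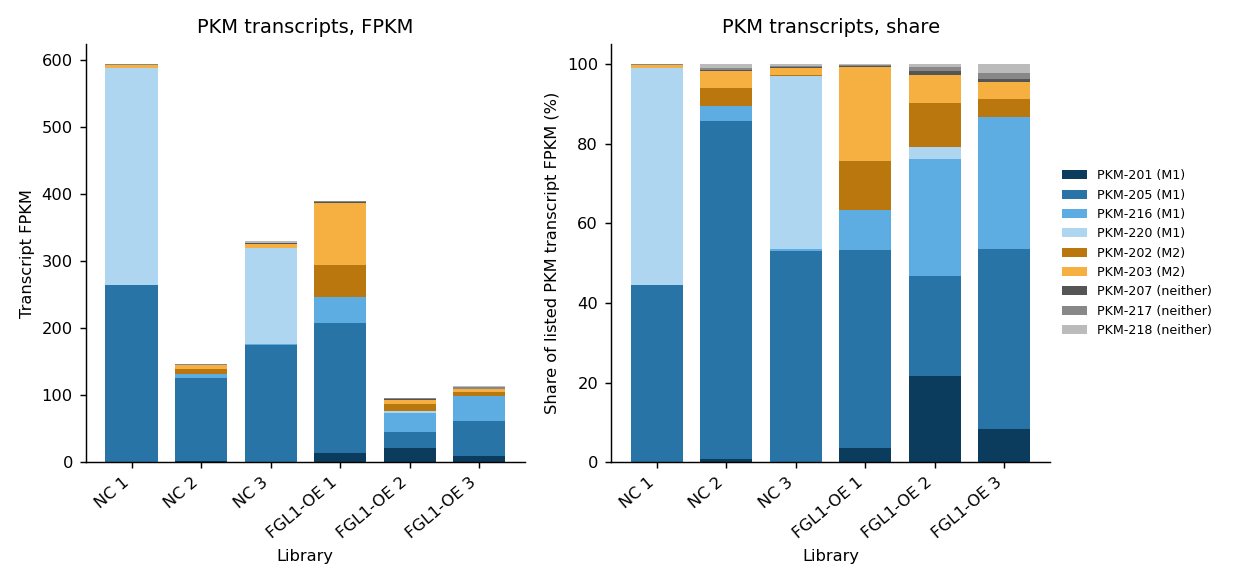
FPKM (left) and share of the listed PKM FPKM in percent (right) of the 9 PKM transcripts in each library, in blue for M1 transcripts, orange for M2 transcripts and grey for transcripts with neither exon. NC 1 and NC 3 hold PKM-220 at 323 and 144 FPKM, PKM-216 is seen in the 3 FGL1-OE libraries at 28.1 to 38.4 FPKM, and M1 transcripts make up 63.2% or more of every bar on the right.

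Other genes around glycolysis were taken from 6 lists of 87 genes, of which 68 were listed in the gene table. By limma, 0 of them had an unadjusted p below 0.05 and 0 an adjusted one. At an unadjusted p below 0.05, the ordinary linear model gave 3 of the 68, where it gave 3.11% of all genes, and limma without NC 2 gave 14 of the 68, where it gave 21.8% of all genes. The groups did not overlap in 4 of the 68, beside 7.15% of all genes tested. Their median log2 fold change was 0.020, beside 0.016 over all genes tested. Above 0 were 37 of the 68, beside 6455 of the 12017 genes tested, which is also the background for the counts of each list below.

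Of 13 further isozymes and enzymes of the pathway, 6 were above 0. Of 9 listed genes for transport and the control of flux, 5 were above 0, with SLC2A1, the main glucose importer of many tumors, at 60.0, 42.3 and 49.4 FPKM in the NC libraries and 51.1, 41.2 and 46.6 FPKM in the FGL1-OE libraries. Of 15 genes for pyruvate use and gluconeogenesis, 12 were above 0 and PDHA1, a subunit of pyruvate dehydrogenase, was 1 of the 4 genes whose groups did not overlap, at 18.0 to 19.3 FPKM in NC and 20.4 to 21.7 FPKM in FGL1-OE (log2 fold change 0.15, SE 0.13). Of 9 genes of the pentose phosphate pathway, 7 were above 0, and PGD, which makes NADPH there, was at 106, 106 and 115 FPKM in the NC libraries and 137, 122 and 125 FPKM in the FGL1-OE libraries (log2 fold change 0.23, SE 0.14, limma adjusted p = 1.00).

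HIF1 and MYC are the best known transcription factors of these enzymes. Of 15 listed genes of that list, 5 were above 0. HIF1A was at 14.7, 43.2 and 21.9 FPKM in the NC libraries and 22.9, 32.6 and 42.8 FPKM in the FGL1-OE libraries, highest in NC 2. CA9, a hypoxia marker, was at 3.67, 1.23 and 1.61 FPKM in the NC libraries and 0.944, 1.14 and 1.11 FPKM in the FGL1-OE libraries (log2 fold change -0.54, SE 0.27, limma adjusted p = 1.00), and NDRG1 was at 2.98 to 3.17 FPKM in NC and 2.53 to 2.82 FPKM in FGL1-OE, both with no overlap of the groups. Of the 7 splicing factors known to choose between the PKM exons, 2 were above 0, with log2 fold changes between -0.21 for HNRNPA2B1 and 0.12. HNRNPA1, which keeps the M1 exon out, was at 128, 115 and 117 FPKM in the NC libraries and 104, 122 and 115 FPKM in the FGL1-OE libraries.

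Several of these values may take in fragments of other loci. GENCODE v29 names 62 pseudogenes for GAPDH, 6 for LDHA, 5 for PKM, 4 each for TPI1 and ENO1, 2 for ALDOA and 1 each for PGK1 and HK2, so the FPKM of these genes is uncertain as far as the authors' assignment placed shared fragments. In that annotation, exons of 8 of the 10 genes, all but PKM and LDHA, overlap those of another gene. On the same strand and protein-coding are AC092073.1 for GPI, AC093512.2 for ALDOA and ATP7A for PGK1, and on the same strand as other gene types are AL356235.1 for PGK1 and AL451164.3 for PFKP. On the other strand are SPSB2 for TPI1, ENO1-AS1 for ENO1, AC006064.4 for GAPDH, AC019069.1 for HK2 and AC093512.1 for ALDOA.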

How the data were processed

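TE1 cells gave 3 NC and 3 FGL1-OE stranded libraries from poly(A)-enriched RNA, read on a NovaSeq instrument. The authors deposited FPKM values per library for genes and transcripts, without read counts and without scaling between libraries. The submitters' processing notes name StringTie and GRCh37. The aligner, the versions and the strand setting are not given in the sources used here. Low FPKM values had no period of whole reads beyond that with shuffled transcript lengths in 5 of 6 libraries (0.112 against 0.111 in the other), so depth is unknown and no counting intervals are given. The deposited tables also hold the authors' own fold changes, p-values and group means, which were not used.

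Genes and transcripts averaging 0.5 FPKM or more were fitted in R 4.3.3 by limma 3.58.1 on log2(FPKM + 1), a pseudocount of 1, without covariates, with Benjamini-Hochberg adjustment over each table (threshold 0.05). The log2 scale with a pseudocount understates the change of low features. Single values and shares had an exact two-sided permutation test over the 6 libraries. The code was tested on simulated data. Transcript sequence, exons and GC content came from GENCODE v29 on GRCh38, matched by identifier with Python 3.11.15, and coordinates of the tables are on GRCh37. All 68 transcripts were found, 56 in the same version, the 9 of PKM included, and 3 ALDOA transcripts belong to another gene name there.

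The members, lists and tests were chosen with earlier results of these data known. Named were the 10 genes, their transcripts with a mean share of at least 10% in a group or an unadjusted p-value under 0.05, and genes of the lists with an unadjusted p-value under 0.05 or a mean of at least 100 FPKM, and LDHB. Other genes and transcripts in the text were chosen after their values were seen. Alternatives were an ordinary linear model, a replicate block, quantile normalization, equal library sums (TPM), a pseudocount of 0.1, a filter at 1 FPKM or none, sums of transcripts or of a group, and each library left out.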

Additional observations from a re-analysis of the deposited data

How the results depend on the processing

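PKM stayed below 0 and HK2, GPI and LDHA above 0 in every alternative run, and PKM-201, PKM-216, PKM-202, PKM-205, PKM-220 and the PKM shares kept their direction. The 3 libraries of each group limit the exact test to p = 0.1, and depth is unknown. Of the 6 other genes, PFKP was at 0.064 from sums of transcripts, GAPDH at -0.067 from sums and -0.17 after quantile normalization, and ENO1 at -0.0054 after TPM scaling and -0.029 after quantile normalization, which put the median of the 10 at -0.015. Sums of transcripts also moved PKM from -0.31 to -0.91 and GPI from 0.21 to 0.078. The cause of these changes was not tested. Genes with adjusted p below 0.05 numbered 1, but 2 by the ordinary linear model. Transcripts numbered 5, but 29 with a pseudocount of 0.1 and 3 by the ordinary linear model, which left 2 of the transcripts of the 10 genes (3.65% of all transcripts) and gave 3 genes of the wider lists (3.11% of all genes) at unadjusted p below 0.05. Between NC and FGL1-OE libraries of the same number, the deviations correlated at 0.35, 0.28 and -0.061 for numbers 1, 2 and 3. Between libraries of different numbers they correlated at -0.37 to 0.14. Whether the replicate numbers mark pairs was not tested. With a replicate block 0 transcripts had adjusted p below 0.05, and no gene or transcript of the 10 did.

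With single libraries left out, log2 fold changes ranged from -0.25 to 0.076 for PFKP, -0.23 to 0.074 for ALDOA, -0.23 to 0.29 for TPI1, -0.071 to 0.072 for GAPDH, -0.086 to 0.024 for PGK1 and -0.24 to 0.16 for ENO1, with a median of the 10 from -0.15 to 0.075 and of the wider lists from -0.037 to 0.040. For transcripts they ranged from -0.67 to 0.38 for ENO1-201, -0.054 to 0.31 for GAPDH-201, -0.30 to 0.00065 for PFKP-203, -0.74 to 0.93 for PFKP-201, -0.11 to 0.024 for PGK1-201 and -0.23 to 0.28 for TPI1-202. The share of the leading transcript differed by -5.90 to 0.525 points for ENO1, -0.124 to 13.0 for GAPDH, -0.484 to 11.4 for LDHA, -18.2 to 0.0367 for PFKP and -0.0218 to 0.440 for TPI1. Adjusted calls went from 1 to 7 genes and from 1 to 28 transcripts, the most without NC 2, and from 0 to 1 transcripts of the 10 genes. Unadjusted calls went from 0 to 1 of the 10 genes in each direction, from 2 to 9 of their 65 transcripts and from 0 to 14 of the 68 genes of the wider lists, the most again without NC 2, where 9.03% of all transcripts and 21.8% of all genes were called.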

Other observations

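MYC, a transcription factor of many glycolysis genes, was chosen after its values were seen. Its level was 2.15, 2.18 and 2.27 FPKM in NC 1, 2 and 3, then 2.33 and 2.21 FPKM in FGL1-OE 1 and 2, but 21.5 FPKM in FGL1-OE 3. The 10 glycolysis genes had a mean log2(FPKM + 1) of 6.82 in that library, between the 6.88 and 6.78 of FGL1-OE 1 and 2. A link between MYC and these genes was not tested.

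ENO1-206, an ENO1 transcript of 7 annotated exons, was listed at 0.047, 31.2 and 0 FPKM in the NC libraries and 0, 20.8 and 32.6 FPKM in the FGL1-OE libraries, so that it was either near 0 or above 20 FPKM in both groups. ALDOA-221 was at 0, 28.7 and 11.5 FPKM in the NC libraries and 34.7, 26.1 and 0.019 FPKM in the FGL1-OE libraries. ALDOA-201 was at 7.49, 0 and 0 FPKM in the NC libraries and 0, 0 and 19.8 FPKM in the FGL1-OE libraries, high only in NC 1 and FGL1-OE 3, where ALDOA-221 was at or near 0. The table names both as ALDOA transcripts, but GENCODE v29 gives both to AC093512.2. PGAM4, whose sequence is close to that of PGAM1, had 16.6%, 2.35% and 8.16% of the FPKM of the phosphoglycerate mutases in NC and 5.28% to 6.40% in FGL1-OE.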
